A study of Mus musculus with 6 samples.

Results

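The 9 genes described here encode acyl-CoA synthetases: the short chain enzymes *Acss1*, *Acss2* and *Acss3*, the medium chain enzymes *Acsm3* and *Acsm5*, and the long chain enzymes *Acsl1*, *Acsl3*, *Acsl4* and *Acsl5*. They were picked by gene symbol from the 24346 genes of the deposited table, with the difference between the genotypes already known for *Acsm3* and *Acss3*, so that the values comparing the genotypes for these 9 genes are a description and carry no test. All 9 passed the filter for low expression, which kept the 12670 genes that reached an FPKM (fragments scaled to exon length and library depth) of 1 in 3 or more libraries.

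Epididymal white adipose tissue (WAT) was collected from 3 AdArmc5 KO and 3 Armc5 flox mice, and its RNA was sequenced with 1 library per mouse. In AdArmc5 KO, Cre recombinase driven by *Adipoq*, a promoter of adipocytes, removes exons 2 and 3 of *Armc5*, whereas Armc5 flox carry the same loxP-flanked allele without Cre. Mice of both genotypes were 24 weeks old, had been fasted for 24 h and then refed for 6 h, and the genotypes were compared among littermates. ARMC5 is the substrate receptor of a CUL3 ubiquitin ligase that targets full-length SREBF, the precursor of the transcription factors that drive lipid synthesis, and the comparison asks how its loss in adipocytes alters gene expression in the refed state. The libraries hold whole tissue, in which fewer cells of a type and less RNA per cell cannot be told apart, and cells other than adipocytes keep *Armc5*.

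The libraries held 25320731 to 38311712 fragments counted to genes, as inferred from the deposited normalized counts. *Armc5* had 3.66, 4.48 and 5.82 FPKM in the libraries labelled KO 1, KO 2 and KO 3, against 5.12, 5.66 and 5.58 FPKM in flox 1, flox 2 and flox 3, so the library labelled KO 3 goes against its label for this gene, although the FPKM covers the whole gene and not the removed exons alone. *Scd1*, a stearoyl-CoA desaturase, went with the label, at 990, 535 and 250 FPKM in the libraries labelled KO 1, KO 2 and KO 3, against 4339, 3402 and 3542 FPKM in the flox libraries. The 13 adipocyte markers were detected in every library, with summed FPKM of 26832 to 39836 in AdArmc5 KO and 35076 to 49304 in Armc5 flox. KO 2 and flox 1 stood apart by genes of ciliated cells, with *Foxj1* at 62.4 and 76.0 FPKM and at most 0.708 FPKM in the other 4 libraries. The library labelled KO 3 stood apart by some genes of the epididymis and vas deferens, with *Akr1b7* at 3122 FPKM, against at most 17.4 FPKM elsewhere. Of the 12 markers listed for these tissues, 7 were below 1 FPKM in it, against 9 to 12 in the other libraries.

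Acyl-CoA synthetases join a fatty acid to coenzyme A at the cost of ATP, and a fatty acid must be activated in this way before it can be esterified into triglyceride, elongated, desaturated or oxidized. The families differ in the chain length they prefer and in their place in the cell: the ACSS enzymes act on acetate and propionate, the ACSM enzymes work in the mitochondrial matrix on medium chain acids, and the ACSL enzymes work on the long chain acids that make up most of the fat in WAT. *Acss2* is a textbook target of SREBF.

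The promoters of 8 of the 9 genes were found in RefSeq on GRCm38.p6 (mm10), as windows of 300 bases from 250 before to 50 after an annotated start, with *Acsl1* having 2 windows, and *Acss3* was not among them. The windows of the medium chain neighbours are shown because these genes lie on the same strand of the same chromosome and differed most in how they compared between the genotypes. The window of *Acss2* is shown for the enzyme known as a target of SREBF, and the downstream window of *Acsl1* for the single match to the sterol regulatory element among the 9 windows. Capitals mark matches on either strand to the 5 motifs searched, the sterol regulatory element TCACNCCAC, the CCAAT box CCAAT, the GC box GGGCGG, the E-box CACGTG and the nuclear receptor half-site AGGTCA. Each is written 5′ to 3′ along the gene's own strand, which is the plus strand for all 4.
Acsm3, chr7:119760673-119760972: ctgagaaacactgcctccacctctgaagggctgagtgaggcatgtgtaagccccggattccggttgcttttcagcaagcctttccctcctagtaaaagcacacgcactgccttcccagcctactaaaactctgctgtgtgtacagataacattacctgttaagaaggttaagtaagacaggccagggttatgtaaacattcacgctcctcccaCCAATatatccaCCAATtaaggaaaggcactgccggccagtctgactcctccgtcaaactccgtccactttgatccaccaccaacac
Acsm5, chr7:119526015-119526314: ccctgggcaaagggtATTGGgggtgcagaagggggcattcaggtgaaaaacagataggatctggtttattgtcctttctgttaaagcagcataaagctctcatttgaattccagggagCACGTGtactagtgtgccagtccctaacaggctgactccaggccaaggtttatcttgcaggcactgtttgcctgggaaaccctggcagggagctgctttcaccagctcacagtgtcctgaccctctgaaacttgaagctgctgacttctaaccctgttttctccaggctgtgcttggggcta
Acss2, chr2:155517793-155518092: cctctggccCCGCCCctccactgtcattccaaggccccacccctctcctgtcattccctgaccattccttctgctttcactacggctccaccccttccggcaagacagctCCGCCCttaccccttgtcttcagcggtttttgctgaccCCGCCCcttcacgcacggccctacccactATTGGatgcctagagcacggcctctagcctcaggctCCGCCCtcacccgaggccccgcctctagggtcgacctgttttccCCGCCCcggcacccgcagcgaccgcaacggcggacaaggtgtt
Acsl1 downstream start, chr8:46490716-46491015: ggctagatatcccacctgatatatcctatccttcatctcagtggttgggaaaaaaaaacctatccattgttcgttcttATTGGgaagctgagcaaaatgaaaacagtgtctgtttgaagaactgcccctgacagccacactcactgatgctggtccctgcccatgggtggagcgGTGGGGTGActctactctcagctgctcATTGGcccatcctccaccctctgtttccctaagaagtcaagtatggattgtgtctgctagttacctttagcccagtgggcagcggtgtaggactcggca

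The window of *Acsm3* held 2 CCAAT boxes, at −37 and −25 from the start, and none of the other motifs. That of *Acsm5* held a CCAAT box at −235 and an E-box at −132. *Acss2* had 5 GC boxes and a CCAAT box on the reverse strand. The sterol regulatory element of *Acsl1* lay at −76 on the reverse strand, between CCAAT boxes at −172 and −49. For *Acsm3*, *Acsm5* and this window of *Acsl1*, the start counted from lies inside the RefSeq span of the gene given below. The CCAAT boxes of *Acsm3*, the E-box of *Acsm5* and the matches in this *Acsl1* window thus lie within those spans, not before them. Of the 32851 RefSeq promoter windows of this length, 1.24% held the sterol regulatory element, 37.4% a CCAAT box, 35.7% a GC box, 7.15% an E-box and 16.3% the half-site, which none of the 9 windows held. These are matches of letters, and binding was not measured here.

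Of the 9 genes, *Acsm3* and *Acss3* had lower levels in every AdArmc5 KO library than in any Armc5 flox library. *Acsm3* averaged 0.193 times and *Acss3* 0.476 times its level in Armc5 flox. The other 7 genes overlapped between the genotypes, and their log2 fold changes lay between −0.26 and 0.19. Among all genes tested, 5.26% had every AdArmc5 KO library below every Armc5 flox library and 3.54% had every one above, and since the 9 genes were picked with this contrast known, nothing is read from their count beside that share. No gene of the 12670 passed an adjusted p of 0.05 in limma (0%), and 425 genes (3.35%) had an unadjusted p under 0.05, 149 lower (1.18%) and 276 higher (2.18%) in AdArmc5 KO. The study that reported these libraries used other tools and listed *Scd1* and other *Scd* genes as lower in AdArmc5 KO at a false discovery rate under 0.05. The absence of calls here thus holds for the limma fits alone.

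**Figure D1:**
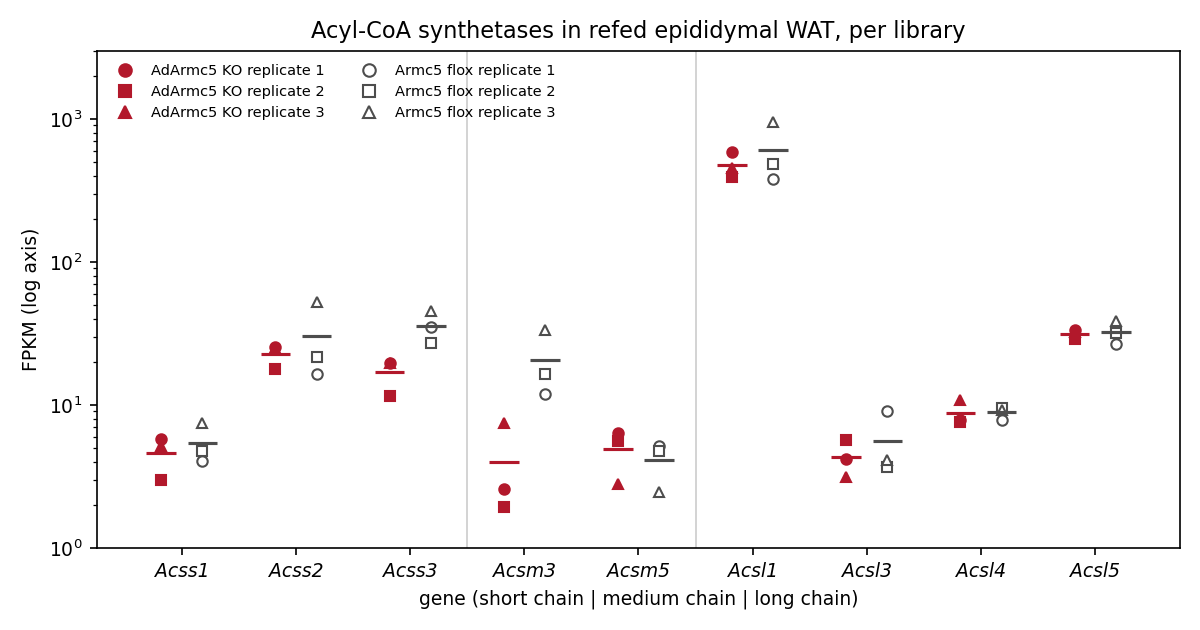
FPKM of the 9 acyl-CoA synthetases on a log axis in the 3 AdArmc5 KO libraries (filled, left of each pair) and the 3 Armc5 flox libraries (open, right), with lines at the group means and genes ordered by chain length. The genotypes separate for *Acss3* and *Acsm3*, and *Acsl1* lies far above the other 8 genes in both.

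*Acsm3* (NCBI Gene 20216, chromosome 7 from 119760883 to 119784896, plus strand) encodes a mitochondrial enzyme that activates medium chain acids. Its FPKM was 2.58, 1.94 and 7.41 in the libraries labelled KO 1, KO 2 and KO 3, against 12.0, 16.4 and 33.6 in flox 1, flox 2 and flox 3. These values rest on 152, 154 and 731 fragments in AdArmc5 KO and on 982, 1115 and 2201 fragments in Armc5 flox. The genotypes did not overlap, but each spanned a wide range: the library labelled KO 3 was 3.83 times as high as KO 2, and flox 3 was 2.81 times as high as flox 1. The means were 3.98 ± 2.99 FPKM in AdArmc5 KO and 20.6 ± 11.4 FPKM in Armc5 flox (SD, n = 3 each), and the log2 fold change of log2(FPKM + 1) was −2.15 (standard error 0.51). Only 6 of the 12670 genes had a lower one. On this scale the change of a gene with low FPKM is understated, and a pseudocount of 0.1 in place of 1 gave −2.45. The ratio of the mean FPKM, which gives more weight to the high libraries, gave −2.37.

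*Acsm5* (NCBI Gene 272428, chromosome 7 from 119526131 to 119543360, plus strand), a second enzyme of the mitochondrial matrix for medium chain acids, ends 217.5 kb before the start of *Acsm3*. It had 6.31, 5.58 and 2.78 FPKM in KO 1, KO 2 and the library labelled KO 3, against 5.14, 4.77 and 2.46 FPKM in the flox libraries. The genotypes overlapped, and the libraries numbered 3 were the lowest of each genotype, the reverse of their place for *Acsm3*. Its log2 fold change was 0.19 (standard error 0.33), the single positive value among the 9 genes. *Acsm3* made up 29.1%, 25.8% and 72.7% of the summed FPKM of these medium chain enzymes in KO 1, KO 2 and the library labelled KO 3, against 69.9%, 77.4% and 93.2% in the flox libraries. The share in the library labelled KO 3 was thus within the range of Armc5 flox, above that of flox 1. The remaining family members *Acsm1*, *Acsm2* and *Acsm4* had at most 0.0448 FPKM in any library.

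The end of *Acsm3* overlaps the convergent gene *Eri2*, an exonuclease gene on the opposite strand, and in GENCODE vM21 the overlap covers 1962 of the 4936 exonic bases of *Acsm3* (39.7%). In RefSeq, the source of the coordinates given here, the overlap is smaller, and the spans of both genes share 1071 bases. The libraries kept the strand, but whether the counting used it is not given in the sources used here, so fragments of these genes may not be fully separated. *Eri2* had 2.84, 3.49 and 4.47 FPKM in AdArmc5 KO, against 4.23, 5.37 and 7.10 FPKM in Armc5 flox, overlapping ranges with a log2 fold change of −0.51 (standard error 0.22, adjusted p = 0.98 from limma). The other tested genes within 100 kb of *Acsm3* were *Thumpd1* at −0.16, *2610020H08Rik* at −0.25 and *Dcun1d3* at −0.25 on the log2 scale (adjusted p = 0.98 from limma for each). *Armc5* lies on the same chromosome, 8.45 Mb beyond *Acsm3*.

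*Acss3* (NCBI Gene 380660, chromosome 10 from 106933514 to 107123761, minus strand) encodes a mitochondrial short chain synthetase, whose rat enzyme prefers propionate. It had 19.7, 11.5 and 19.7 FPKM in KO 1, KO 2 and the library labelled KO 3, against 35.1, 27 and 45.0 FPKM in flox 1, flox 2 and flox 3. The highest AdArmc5 KO value lay 7.24 FPKM below the lowest Armc5 flox value. The means were 17 ± 4.75 FPKM in AdArmc5 KO and 35.7 ± 9.02 FPKM in Armc5 flox (SD, n = 3 each), with a log2 fold change of −1.04 (standard error 0.27). Its log2 values varied less within a genotype than those of *Acsm3*, with a pooled SD of 0.39 against 0.77. No gene within 100 kb of *Acss3* passed the filter for low expression.

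The other short chain genes overlapped between the genotypes. *Acss2* (NCBI Gene 60525, chromosome 2 from 155518043 to 155562743), the acetyl-CoA synthetase of the cytosol and nucleus, had 25.6, 17.7 and 25.1 FPKM in KO 1, KO 2 and the library labelled KO 3, against 16.5, 21.8 and 52.8 FPKM in the flox libraries. Its highest value stood in flox 3, at 3.21 times the value of flox 1, whereas the AdArmc5 KO libraries differed by 1.44 times. Its log2 fold change was −0.24 (standard error 0.42). *Acss2os*, an antisense gene that shares 335 exonic bases with it, had at most 0.244 FPKM. *Acss1* (NCBI Gene 68738, chromosome 2 from 150618111 to 150668240), the acetyl-CoA synthetase of mitochondria, had 5.75, 2.97 and 5.13 FPKM in KO 1, KO 2 and the library labelled KO 3, against 4.04, 4.78 and 7.49 FPKM in the flox libraries. Its lowest value was in KO 2 and its highest in flox 3, and the log2 fold change was −0.20 (standard error 0.28).

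The share of *Acss3* within the short chain family was lower in every AdArmc5 KO library. *Acss3* made up 38.7%, 35.7% and 39.5% of the summed FPKM of *Acss1*, *Acss2* and *Acss3* in KO 1, KO 2 and the library labelled KO 3, against 63.1%, 50.4% and 42.7% in flox 1, flox 2 and flox 3. The AdArmc5 KO shares lay close together and below all Armc5 flox shares, which were spread more widely. The ratio of *Acss3* to *Acss2* was 0.772, 0.649 and 0.787 in the AdArmc5 KO libraries, against 2.13, 1.24 and 0.852 in the Armc5 flox libraries. In flox 3, both genes were at their highest, and its ratio came nearest to those of AdArmc5 KO.

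**Figure D2:**
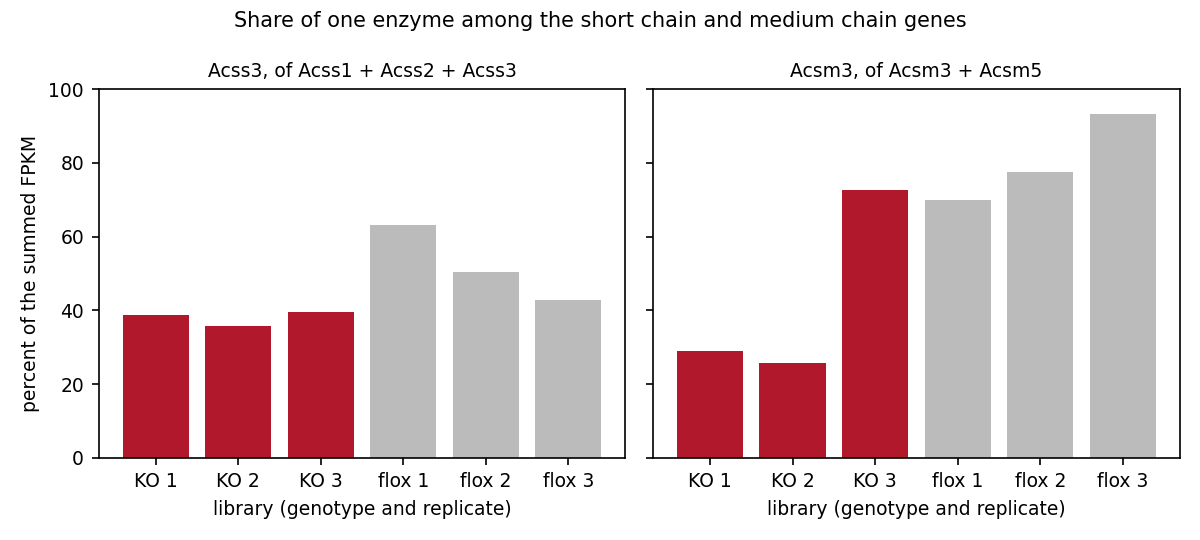
Share (percent) of *Acss3* in the summed FPKM of the 3 short chain genes (left) and of *Acsm3* in that of *Acsm3* and *Acsm5* (right), 1 bar per library, AdArmc5 KO in red and Armc5 flox in grey. The *Acss3* share is 35.7% to 39.5% in AdArmc5 KO and 42.7% to 63.1% in Armc5 flox, whereas the *Acsm3* share of the library labelled KO 3, 72.7%, lies among those of Armc5 flox.

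The 4 long chain genes overlapped between the genotypes. *Acsl1* (NCBI Gene 14081, chromosome 8 from 46471037 to 46536051), the main long chain synthetase of adipocytes, had 585, 391 and 451 FPKM in KO 1, KO 2 and the library labelled KO 3, against 378, 483 and 949 FPKM in the flox libraries. Its log2 fold change was −0.25 (standard error 0.37), and the flox libraries held both its lowest and its highest value. *Acsl5* (NCBI Gene 433256, chromosome 19 from 55251861 to 55296628), found on mitochondria and the endoplasmic reticulum, had 33.3, 28.7 and 32.5 FPKM in AdArmc5 KO, against 26.9, 31.7 and 38.7 FPKM in Armc5 flox. As the ratio of the highest to the lowest AdArmc5 KO library, its spread of 1.16 times was the narrowest of the 9 genes, and its log2 fold change was −0.03 (standard error 0.16).

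*Acsl4* (NCBI Gene 50790, X chromosome from 142317993 to 142390802), which prefers arachidonic acid, had 7.80, 7.60 and 10.8 FPKM in AdArmc5 KO, against 7.86, 9.58 and 9.25 FPKM in Armc5 flox. Its lowest and highest values were both in AdArmc5 KO libraries, and its log2 fold change was −0.04 (standard error 0.17). *Acsl3* (NCBI Gene 74205, chromosome 1 from 78657825 to 78707743), an enzyme of the endoplasmic reticulum and lipid droplets, had 4.19, 5.65 and 3.11 FPKM in KO 1, KO 2 and the library labelled KO 3, against 9.03, 3.69 and 4.12 FPKM in the flox libraries. Its log2 fold change was −0.26 (standard error 0.34). The highest *Acsl3* value of each genotype was in KO 2 and flox 1, the libraries with genes of ciliated cells, and without these libraries its log2 fold change was −0.09. The part of those cells in the level of *Acsl3* was not tested.

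By chain length, the median log2 fold change was −0.24 over the 3 short chain genes, −0.98 over the 2 medium chain genes and −0.14 over the 4 long chain genes, against −0.03 over all 12670 genes. The short chain values ran between −1.04 and −0.20, the medium chain values between −2.15 and 0.19, and the long chain values between −0.26 and −0.03. The spread within the short and medium chain families was therefore wider than the distance between their medians and that of the long chain family. Of the 9 genes, 8 had a log2 fold change below 0, as had 56.5% of all genes tested, and the median over the 9 was −0.24. Under quantile normalization 7 of the 9 were below 0, *Acsl5* having turned to 0.03.

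**Figure D3:**
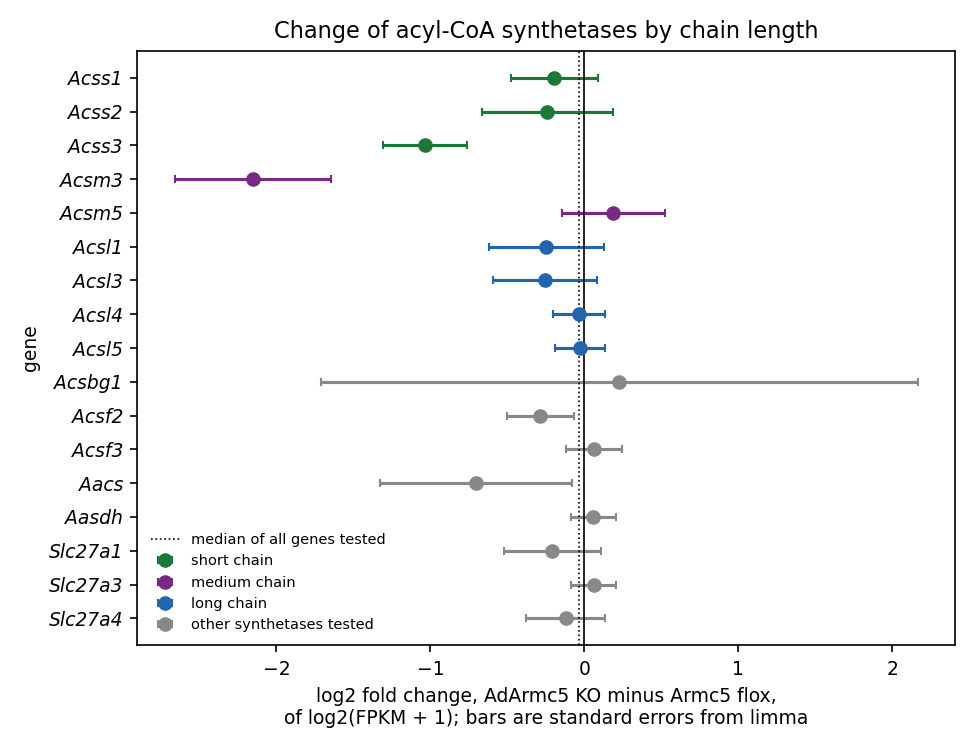
Log2 fold change of log2(FPKM + 1), AdArmc5 KO minus Armc5 flox, for the 9 genes by chain length and for the 8 other acyl-CoA synthetases past the filter, with bars for the standard error from limma. *Acsm3* at −2.15 and *Acss3* at −1.04 lie apart from the other 7 genes, and *Acsbg1* has the widest bar, 1.94.

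FPKM are scaled to exon length, so levels can be ordered across genes. In AdArmc5 KO, *Acsl1* was the highest at 476 FPKM, followed by *Acsl5* at 31.5, *Acss2* at 22.8, *Acss3* at 17 and *Acsl4* at 8.73 FPKM, and among these the ranges of *Acss2* and *Acss3* overlapped. *Acsm5*, *Acss1*, *Acsl3* and *Acsm3* followed at 4.89, 4.62, 4.32 and 3.98 FPKM, and each overlapped the next. In Armc5 flox, *Acsl1* at 603 FPKM was followed by *Acss3* at 35.7, *Acsl5* at 32.4, *Acss2* at 30.4 and *Acsm3* at 20.6 FPKM, each of these 4 overlapping the next. Below them stood *Acsl4*, *Acsl3*, *Acss1* and *Acsm5* at 8.90, 5.62, 5.44 and 4.13 FPKM, again with overlapping neighbours. *Acsm3* was the lowest of the 9 genes in AdArmc5 KO and the fifth highest in Armc5 flox.

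*Acsl1* alone made up 82.8 ± 1.93% of the FPKM of the 9 genes in AdArmc5 KO and 79.9 ± 3.32% in Armc5 flox (SD, n = 3 each), with overlapping ranges. The medium chain genes made up 1.29% to 1.83% in AdArmc5 KO and 3.15% to 3.51% in Armc5 flox, ranges that did not overlap. The long chain genes made up 89.2% to 91.6% in AdArmc5 KO and 85.3% to 87.6% in Armc5 flox. These shares move with *Acsm3* and *Acss3*, whose contrast was known when the genes were picked.

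The libraries themselves differed along the 9 genes. Flox 3 was the highest of the 6 libraries for 6 of the 9 genes, and KO 2 was the lowest for 4. Without flox 3, the log2 fold change was −1.75 for *Acsm3* and −0.86 for *Acss3*, but it turned positive for *Acss1* (0.02), *Acss2* (0.24), *Acsl1* (0.13) and *Acsl5* (0.10) and negative for *Acsm5* (−0.07), and the median over the 9 genes was −0.01. Without KO 2 it was −1.85 for *Acsm3* and −0.79 for *Acss3*, and it turned positive for *Acss1* (0.04), *Acsl4* (0.05) and *Acsl5* (0.03). Without the library labelled KO 3 it was −2.61 for *Acsm3* and −1.16 for *Acss3*. *Acsl3* turned positive without flox 1 (0.09), and *Acsl4* turned positive without KO 1 (0.03) or flox 2 (0.01).

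**Figure D4:**
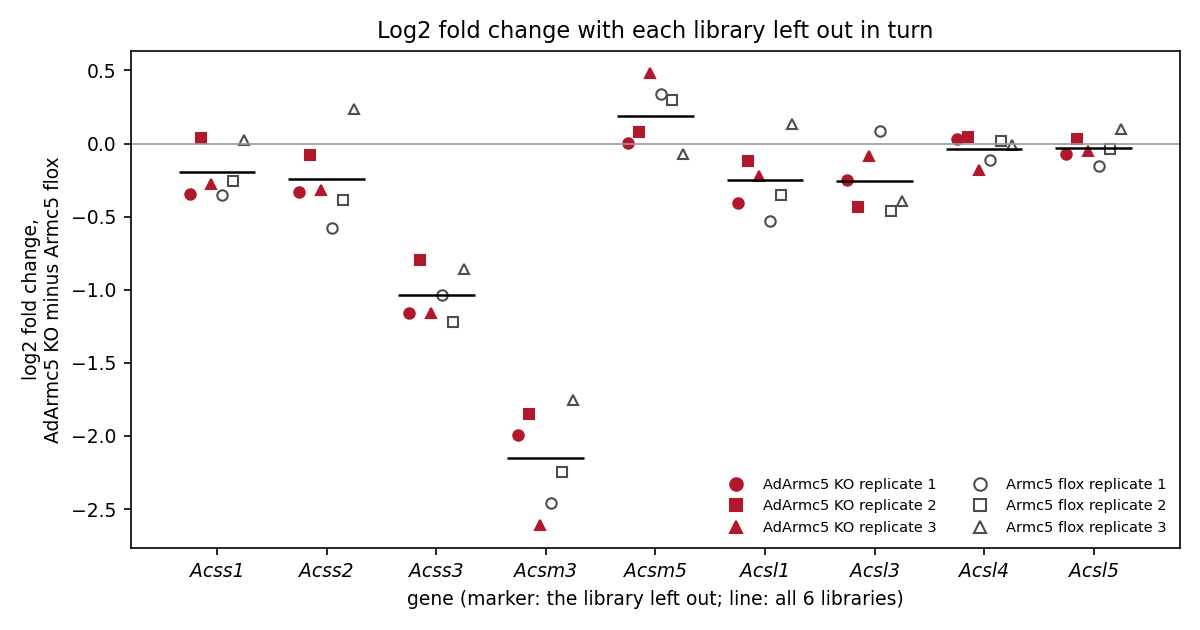
Log2 fold change of each gene, AdArmc5 KO minus Armc5 flox, with 1 library left out at a time (marker shape and fill give the library) and with all 6 libraries (line). *Acsm3* stays between −2.61 and −1.75 and *Acss3* between −1.22 and −0.79, whereas each of the other 7 genes has points on both sides of 0. For *Acsm3* and *Acss3* the sign could not turn, since their genotypes do not overlap.

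The adipocyte markers ran the same way as the 9 genes between some libraries, with mean log2(FPKM + 1) of 10.09, 9.56 and 10.10 in KO 1, KO 2 and the library labelled KO 3, against 9.80, 10.42 and 10.25 in flox 1, flox 2 and flox 3. Of the 13 adipocyte markers, 8 had a log2 fold change below 0, with a median of −0.25. Set against this mean in each library, the log2 fold change was −1.91 for *Acsm3* and −0.79 for *Acss3*, and for both every AdArmc5 KO library was still below every Armc5 flox library. For *Acss3* this was by little: its highest AdArmc5 KO value was −5.71 and its lowest Armc5 flox value −5.61, against −7.03 and −6.30 for *Acsm3*. Set against the same mean, the other 7 genes lay between −0.01 and 0.43, with *Acsm5* the highest. Macrophage markers had a mean log2(FPKM + 1) of 5.54 to 6.06 in AdArmc5 KO and 5.10 to 5.93 in Armc5 flox, with none of the 12 at 0 in any library. The log2 fold changes of 11 of them lay above 0, with a median of 0.42 over the 12, and *Fcgr1* and *Cd68* were higher in every AdArmc5 KO library than in any Armc5 flox library. Of the 9 fibroblast and progenitor markers, 7 were above 0 (median 0.16), and *Lum* and *Col1a1* were higher in every AdArmc5 KO library, whereas 3.54% of all genes were. None of these 21 markers passed an adjusted p of 0.05 in limma, and these 4 had an unadjusted p under 0.05. With 1 library left out, 8 to 11 of the 12 macrophage markers were above 0 (median 0.17 to 0.77). For the 9 fibroblast and progenitor markers it was 5 to 8 (median 0.007 to 0.32), the fewest being without KO 1. Of all genes tested, 56.5% were below 0. The 8 mesothelial markers had a mean log2(FPKM + 1) of 0.99 to 2.39 and a summed FPKM of 9.22 to 59.7 in AdArmc5 KO, against 2.49 to 2.94 and 48.4 to 95.8 in Armc5 flox, again with none at 0. Their means did not overlap between the genotypes, but none of the 7 tested was by itself lower in every AdArmc5 KO library, as 5.26% of all genes were. All 7 were below 0 (median −0.84), and 6 or 7 with 1 library left out (median −1.07 to −0.56). Of the 9 endothelial markers, 8 were below 0 (median −0.14), and 5 to 8 with 1 library left out. *Kdr* was the single endothelial marker lower in every AdArmc5 KO library. The part of these cells in the levels of *Acsm3* and *Acss3* was not tested. Without both libraries that held genes of ciliated cells, *Acsm3* was at −2.16 and *Acss3* at −0.79.

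Of 16 other acyl-CoA synthetase genes in the table, 8 passed the filter, 4 with a log2 fold change below 0 and 4 above it, and their median was −0.03. None passed an adjusted p of 0.05 or an unadjusted p of 0.05 in limma, where adjusted p ran between 0.98 and 0.999. The most abundant was *Slc27a1*, the fatty acid transport protein of adipocytes with synthetase activity, at 337, 374 and 592 FPKM in AdArmc5 KO, against 365, 482 and 653 FPKM in Armc5 flox. *Aacs*, which activates acetoacetate in the cytosol, had 61.3, 65.8 and 204 FPKM in KO 1, KO 2 and the library labelled KO 3, against 91.4, 126 and 315 FPKM in the flox libraries, with a log2 fold change of −0.70 (standard error 0.62). For both genes the libraries numbered 3 were the highest of each genotype, as they were for *Acsm3*. *Acsf2*, a mitochondrial medium chain enzyme, had 13.8, 22.2 and 13.7 FPKM in AdArmc5 KO, against 23.1, 17.8 and 19.3 FPKM in Armc5 flox (−0.29, standard error 0.22).

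*Acsbg1*, a very long chain synthetase best known from brain and steroid-forming tissue, had 0.578, 60.7 and 2.14 FPKM in KO 1, KO 2 and the library labelled KO 3, against 69.1, 0.425 and 0.911 FPKM in flox 1, flox 2 and flox 3. It was high in KO 2 and flox 1, the libraries with genes of ciliated cells. *Slc27a2*, a very long chain synthetase below the filter, had 14.6 FPKM in KO 2 and 16.1 FPKM in flox 1, and at most 0.893 FPKM elsewhere. *Acsm3* and *Acss3* did not share this pattern: in KO 2 both were at their lowest.

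**Figure D5:**
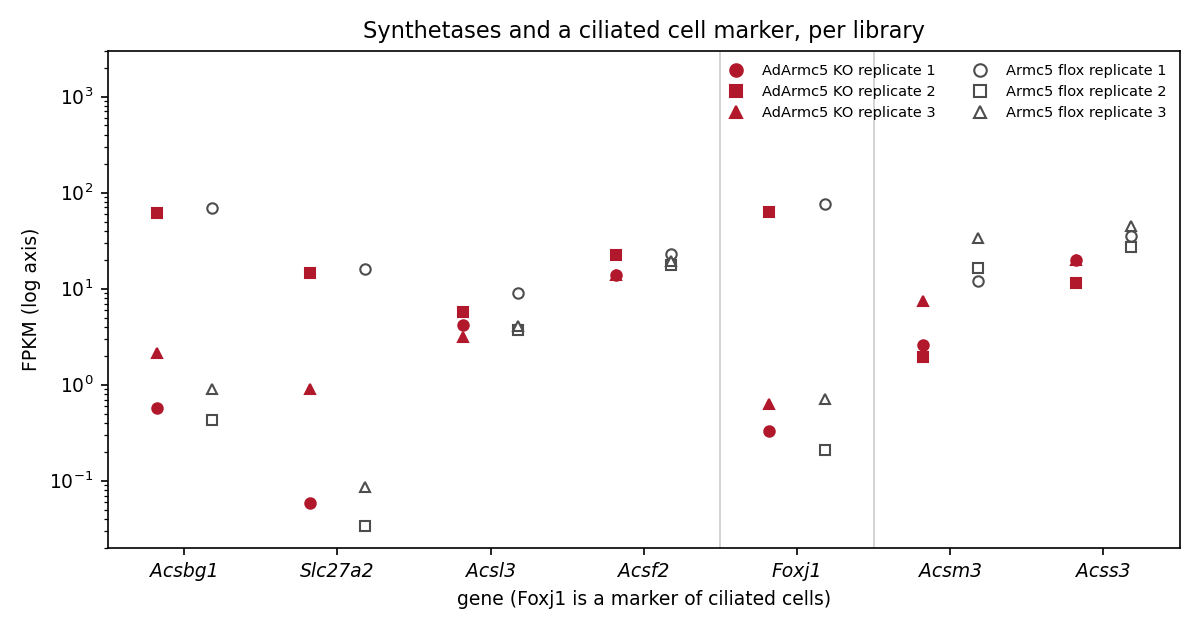
FPKM on a log axis of 4 synthetases, the ciliated cell marker *Foxj1*, *Acsm3* and *Acss3* in each library, AdArmc5 KO filled and left of Armc5 flox (open). *Acsbg1*, *Slc27a2* and *Foxj1* are high in KO 2 and flox 1 alone, whereas *Acsm3* and *Acss3* in KO 2 are at their lowest value.

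Among the genes that use acyl-CoA downstream and the SREBF targets, none passed an adjusted p of 0.05 in limma, and *Pccb* and *Scd1* had an unadjusted p under 0.05. Of the 9 tested genes that use acetyl-CoA and propionyl-CoA, 8 had a log2 fold change below 0 and the median was −0.39, against −0.03 over all genes. *Pccb*, a subunit of propionyl-CoA carboxylase, the enzyme after propionate activation, had 68.4, 55.3 and 67.6 FPKM in AdArmc5 KO, against 84.0, 87.2 and 94.5 FPKM in Armc5 flox, and these ranges did not overlap (−0.47, standard error 0.14, adjusted p = 0.98 from limma). It was the single gene of the 9 with an unadjusted p under 0.05 and with every AdArmc5 KO library below every Armc5 flox library, beside 3.35% and 5.26% of all genes tested. Without flox 3, 6 of the 9 were below 0 and the median was −0.28. *Mlycd*, malonyl-CoA decarboxylase, was at −0.62 and *Acacb*, an acetyl-CoA carboxylase, at −0.79 on the log2 scale, and both overlapped between the genotypes.

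All 10 tested acyltransferases of glycerolipid synthesis, which use the products of the long chain enzymes, had a log2 fold change below 0, with a median of −0.20, as had 56.5% of all genes. This count rested on flox 3: without it, 2 of the 10, *Gpam* and *Mogat1*, were below 0 and the median was 0.09, and without KO 2, 6 were below 0 and the median was −0.01. Furthest below 0 was *Gpam*, the first acyltransferase of the pathway, at −0.80 (standard error 0.58), with 89.1, 85.0 and 172 FPKM in AdArmc5 KO, against 120, 126 and 455 FPKM in Armc5 flox. The 7 genes of the carnitine shuttle, which carries acyl groups into mitochondria, were split, with 3 below 0, 4 above and a median of 0.09. *Cpt1a* was at 0.53 and *Cpt2* at −0.57. The 8 tested genes of acyl-CoA and fatty acid binding were split 4 to 4, and *Fabp5*, a fatty acid binding protein of macrophages and adipocytes, was at 0.67. Of 17 tested SREBF targets, 11 were below 0 and the median was −0.16, but without flox 3, 6 were below 0 and the median was 0.41. *Scd1* was the lowest at −2.87 (adjusted p = 0.67 from limma).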

How the data were processed

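RNA was isolated from epididymal WAT of 3 AdArmc5 KO and 3 Armc5 flox mice and sequenced as stranded mRNA libraries. According to the submitters' processing notes, the reads were mapped to mm10 with TopHat2 2.0.13, Bowtie2 2.2.3 and SAMtools 0.1.19. The FPKM values were deposited by the authors, who list Cuffnorm (version 2.2.1), which scales libraries to each other. Fragment numbers came from a second deposited signal, the normalized counts of the authors. Dividing these by the commonest low value of a library, taken as that of a single fragment, gave whole numbers, to a tolerance of 0.1, for 97.8% to 99.0% of the values. Not all were, so no test for counts was run. Columns of the authors' own fold changes and p-values were not used, nor were 6 further columns of per-sample log2 values. Genotype and replicate came from the labels, age and feeding from the study's methods.

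log2(FPKM + 1) of 12670 genes was compared with limma (version 3.58.1, R version 4.3.3) with genotype as the only term and a mean-variance trend, with Benjamini-Hochberg adjustment over these genes, after the fit had been tested on simulated data. The labels do not say that the mice came from separate litters. With 3 libraries per genotype the smallest p of an exact permutation test is 0.1. The members and lists were chosen with earlier results of these data known. Named are the 9 genes, *Armc5*, the other synthetases, up to 3 genes per list with the smallest p, tested genes within 100 kb of *Acsm3* or *Acss3*, and the 5 genes nearest to each in pattern. Not every gene so chosen is reported here. Coordinates and promoters are from RefSeq on GRCm38.p6, exons from GENCODE vM21. Alternatives were other pseudocounts (0.1 and 0.5), other filters, quantile normalization, scaling by the trimmed mean of M values, no trend, the replicate number as a block, libraries left out, the ratio of means, and normalized counts of at least 10.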

Additional observations from a re-analysis of the deposited data

How the results depend on the processing

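No gene passed an adjusted p of 0.05 in limma under any alternative run. The 425 genes with an unadjusted p under 0.05 became 863 without the filter, 274 to 637 with 1 library left out (274 without KO 1), and 276 without both flox 3 and KO 2, an alternative chosen after seeing the data. The median log2 fold change of the 9 synthetases, −0.24, lay between −0.36 and −0.0076 with 1 library left out, the value nearest 0 being without flox 3, and was 0.074 without both flox 3 and KO 2. *Acsm3* (−2.61 to −1.45) and *Acss3* (−1.22 to −0.62) were below 0 in all 20 alternatives, and each of the other 7 genes changed sign in at least 1. For *Acsm3* and *Acss3* this sign is no test, as these genes were picked with the contrast known. Their genotypes do not overlap, so leaving libraries out could not turn it. The filters, the trend and the replicate block leave every fold change as it was. With the replicate block, 575 genes had an unadjusted p under 0.05. The block cannot alter the fold changes, as every replicate number occurs in both genotypes, so the median of the 9 genes stayed −0.24. Deviations of same-numbered libraries correlated at −0.53, −0.41 and 0.58. Those of KO 2 and flox 1, the libraries with genes of ciliated cells, correlated at 0.75. With such differences between libraries, these values cannot decide whether a replicate number marks a litter. Within a genotype, the highest library was 1.16 to 3.21 times the lowest for the 7 overlapping genes. How large a difference 3 libraries per genotype could detect in these 9 genes was not tested. Leaving out each library for the gene lists was an alternative added after seeing the data. *Acsm3* in KO 1 and KO 2 rests on 152 and 154 fragments.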

Other observations

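Among the other 12669 genes tested, the nearest in pattern to *Acsm3* over the 6 libraries, by the root mean square difference of centred log2(FPKM + 1), were *H2-Q10* (0.48), *G0s2* (0.54), *Cyp2e1* (0.58), *Hsd17b10* (0.62) and *Fam195a* (0.62). These genes were chosen for following *Acsm3* across both genotypes, so their lower values in AdArmc5 KO largely follow from the choice and are a description. *G0s2*, an inhibitor of adipose triglyceride lipase, had 283, 242 and 362 FPKM in the libraries labelled KO 1, KO 2 and KO 3, against 516, 601 and 1148 FPKM in flox 1, flox 2 and flox 3. *Acss3* was 22nd in this order, at 0.74, and *Acsm5* was 11378th, at 1.55.

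The nearest to *Acss3* were *Sctr* (0.12), *Osgin1* (0.16), *Nabp1* (0.20), *Nrg4* (0.20) and *Bcl6* (0.20). *Acsm3* was 9263rd in this order, at 0.74, behind *Acss1*, which was 692nd at 0.45. Here too, the lower values of the nearest genes in AdArmc5 KO largely follow from how they were chosen. *Sctr*, the secretin receptor, had 5.54, 3.96 and 6.25 FPKM in the libraries labelled KO 1, KO 2 and KO 3, against 10.5, 7.65 and 15.4 FPKM in flox 1, flox 2 and flox 3. *Nrg4*, a growth factor secreted by adipocytes, had 35.4, 15.6 and 32.1 FPKM in AdArmc5 KO, against 44.8, 35.8 and 53.4 FPKM in Armc5 flox.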
